A study of Mus musculus with 12 samples.

Results

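The Zic genes encode zinc finger transcription factors of the embryonic neural plate and dorsal neural tube. The members were Zic1, Zic2, Zic4 and Zic5, found by their single gene symbol in the platform annotation, which gave 4 genes with 8 probe sets among 18193 genes with 34945 probe sets. They were selected on line and day differences already seen on these same 12 arrays, so their values are described here and carry no test. The samples were mouse embryonic stem cells taken through neuronal differentiation, with total RNA hybridised to Affymetrix arrays. HM1 cells are male, carry a nonfunctional Hprt gene and served as the control line, and CAG150 cells, per the series title, carry expanded CAG repeats, as far as the study is known within Htt, the gene of Huntington's disease. The 4 groups were HM1 at day 4, CAG150 at day 4, HM1 at day 6 and CAG150 at day 6, with 3 arrays each and no treatment named. There was 1 line of each kind, so line and genotype cannot be told apart. The labels do not say whether arrays of a group came from separate cultures, so errors and p-values cover no more than the scatter among these samples, which may be technical.

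Zic proteins share a block of C2H2 zinc fingers that resembles that of the Gli factors of Hedgehog signalling, and bind DNA and partner proteins through it. In the embryo they are expressed in the early neural plate and later mainly in its dorsal part and in neural crest precursors, and they are known for keeping neural progenitors dividing and for the cerebellum, where Zic1 is abundant in granule cell precursors. Loss of Zic1 and Zic4 together is linked to Dandy-Walker malformation of the cerebellum, and loss of Zic2 to holoprosencephaly. The genes lie in pairs, and by the gene order of GRCm38.p6, Zic1 and Zic4 are neighbours on chromosome 9 and Zic5 and Zic2 on chromosome 14, with 0 protein-coding genes between the members of a pair.

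Intensities are the authors' linear values with each array scaled to the same trimmed mean, and array medians ranged from 19.2 to 25.9. Differences are of log2(intensity + 16) ± SE, from a limma fit of 12280 genes with enough signal to all 12 arrays, and a fold from them understates the change of a dim gene. The filter lay at an intensity of 11.9, and nothing in the values used here says whether a dim probe set was detected. The tissue label of the samples is nervous system, and all 6 neural progenitor markers and all 8 neuron markers looked at were above the filter. All 7 pluripotency markers were above it too, so passing the filter does not single out neural cells. Array correlations over the genes tested were 0.990 to 0.993 within groups and at most 0.979 between groups. The 2 comparisons of lines and the 2 comparisons of days use the same 4 groups, so they share arrays. In these bulk samples, fewer cells of a type and less RNA per cell cannot be told apart.

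The promoters of Zic1, Zic4 and Zic5 are shown because Zic1 and Zic4 are chromosome neighbours of which Zic1 alone was well above the filter, and because Zic1 and Zic5 had a different order of groups. They are the 250 bases before the RefSeq start of each gene in GRCm38.p6, 5′ to 3′ on the gene's strand, with matches on either strand in capitals. The motifs searched were the CCAAT box, the GC box (letters GGGCGG), the TATA box (letters TATAAA) and a core found in Zic binding sites (letters CAGCAGG). Zic2 was not in the promoter table.
Zic1, chr9:91365769-91366018, minus strand: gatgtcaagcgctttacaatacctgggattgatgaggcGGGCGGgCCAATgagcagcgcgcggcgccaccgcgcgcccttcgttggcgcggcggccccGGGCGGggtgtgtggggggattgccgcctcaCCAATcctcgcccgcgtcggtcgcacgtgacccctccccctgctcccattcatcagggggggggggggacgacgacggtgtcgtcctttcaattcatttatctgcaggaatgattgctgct
Zic4, chr9:91368722-91368971, plus strand: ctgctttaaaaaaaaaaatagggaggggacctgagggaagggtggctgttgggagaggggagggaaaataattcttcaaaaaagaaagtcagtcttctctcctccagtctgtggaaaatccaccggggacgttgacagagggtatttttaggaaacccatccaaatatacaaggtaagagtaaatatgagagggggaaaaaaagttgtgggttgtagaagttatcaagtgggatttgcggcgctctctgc
Zic5, chr14:122465659-122465908, minus strand: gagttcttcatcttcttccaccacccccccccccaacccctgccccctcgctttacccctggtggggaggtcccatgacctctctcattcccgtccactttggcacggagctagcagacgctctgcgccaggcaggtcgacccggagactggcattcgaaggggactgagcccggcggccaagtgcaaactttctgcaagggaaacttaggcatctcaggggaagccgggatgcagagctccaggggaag

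The Zic1 window held 2 CCAAT and 2 GC box matches, none of them overlapping, and the Zic4 and Zic5 windows held 0 of either. Among 32851 promoter windows of this length, 33.8% held the CCAAT box and 32.7% the GC box. The Zic core, present in 8.4% of the windows, and the TATA box, present in 12.4%, had 0 matches in all 3 windows. GC content was 66.0% for Zic1, 62.4% for Zic5 and 44.4% for Zic4, against a median of 52.4% over all windows. The ratio of observed to expected CpG was 0.995 for Zic1, above 94.0% of all windows, 0.458 for Zic5 and 0.376 for Zic4. A match is a run of letters and not a known binding site.

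Zic1 had the largest difference between the lines of the 4 genes. On the brighter of its probe sets, in HM1 at day 4 the 3 arrays read 273, 305 and 255, and in CAG150 at day 4 they read 534, 503 and 669. In HM1 at day 6 the values were 163, 185 and 194, and in CAG150 at day 6 they were 1134, 1046 and 1432. From low to high the groups ran HM1 at day 6, HM1 at day 4, CAG150 at day 4 and CAG150 at day 6, and no 2 neighbours in this order overlapped. The group means were 181 ± 15.8, 278 ± 25.4, 568 ± 88.3 and 1204 ± 202 (SD, n = 3 each) in that order.

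So Zic1 moved in opposite directions with time in the lines. It was lower at day 6 than at day 4 in HM1, by -0.58 ± 0.13 on the log2 scale, and higher at day 6 in CAG150, by 1.06 ± 0.13. CAG150 exceeded HM1 by 0.99 ± 0.13 at day 4 and by 2.62 ± 0.13 at day 6, where Zic1 ranked 4 from the top of 12280 genes. The interaction, which is the day difference in CAG150 minus that in HM1, was 1.64 ± 0.19, rank 15 from the top. The other probe set of Zic1, dimmer by 1.21 to 1.64 on the log2 scale on every array, gave the same order of groups. It read 59.6, 64.3 and 71.6 in HM1 at day 6, and 95.2, 98.3 and 77.1 in HM1 at day 4. In CAG150 it read 175, 158 and 204 at day 4 and 479, 392 and 610.0 at day 6. Its line differences were 0.88 ± 0.15 at day 4 and 2.63 ± 0.15 at day 6, and its groups did not overlap either.

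**Figure D1:**
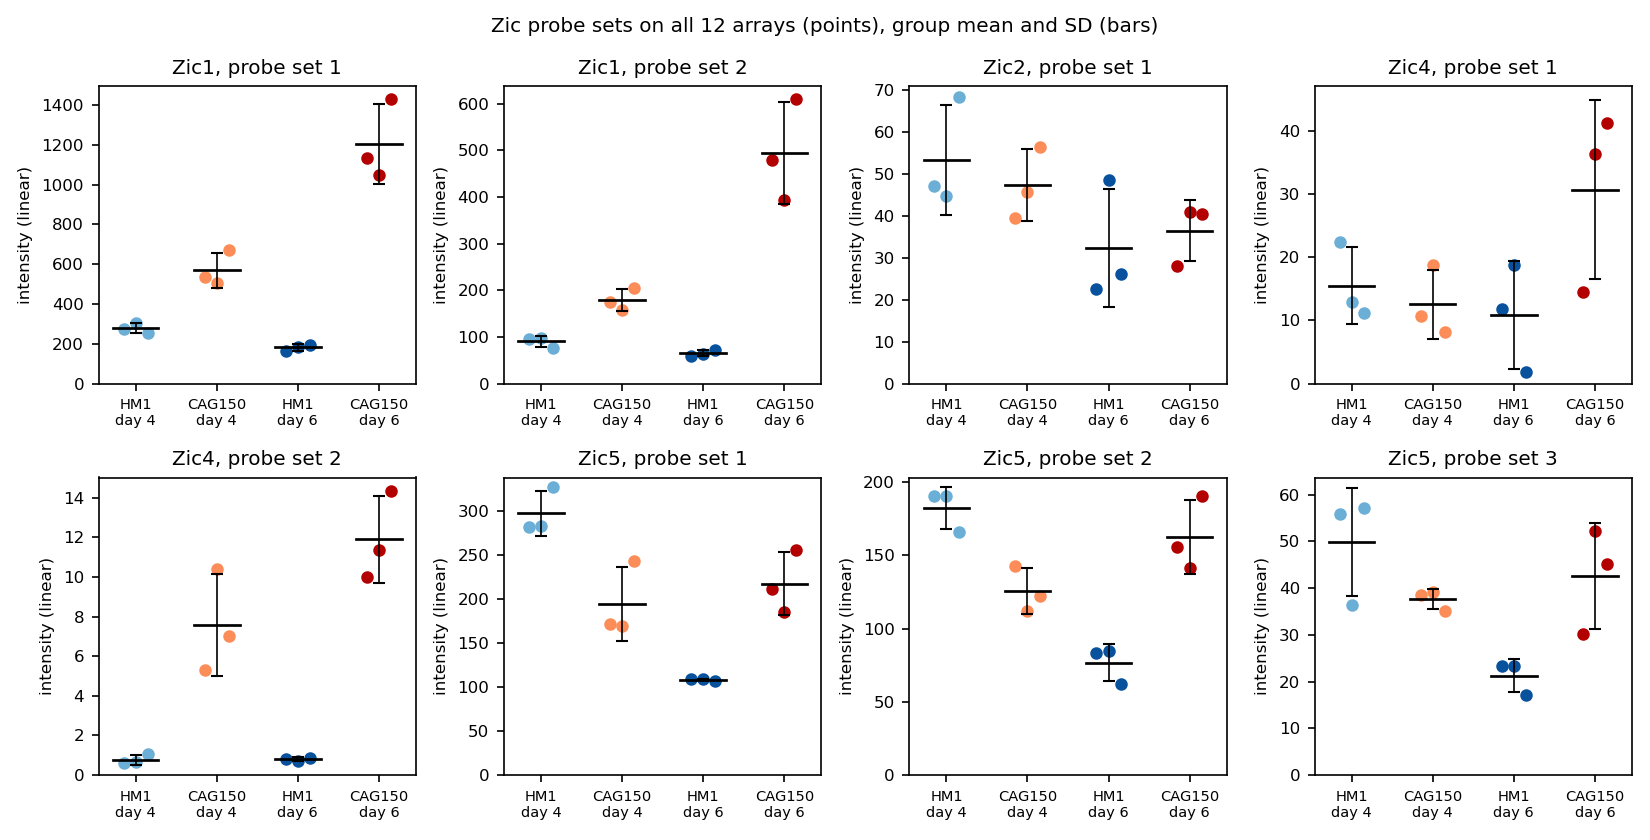
Linear intensity (vertical axes, from 0) of the 8 Zic probe sets in the 4 groups, with a point for each array and bars for the group mean and SD; probe sets are numbered from the brightest. Zic1 ran from a mean of 181 in HM1 at day 6 to 1204 in CAG150 at day 6, while Zic5 was highest in HM1 at day 4 (297) and lowest in HM1 at day 6 (108).

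Zic5, which is known from neural plate and neural crest development, was brightest in HM1 at day 4 and dimmest in the same line at day 6. Its brightest probe set read 282, 283 and 327 in HM1 at day 4 and 109, 109 and 107 in HM1 at day 6. In CAG150 it read 171, 169 and 243 at day 4 and 211, 185 and 256 at day 6. The 2 CAG150 groups overlapped each other and lay between the HM1 groups without touching them. Group means were 297 ± 25.7 in HM1 and 195 ± 41.9 in CAG150 at day 4, and 108 ± 0.736 and 217 ± 35.5 at day 6 (SD, n = 3 each).

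The order of the lines for Zic5 was therefore the reverse at day 6 of that at day 4. CAG150 was lower than HM1 by -0.59 ± 0.14 at day 4 and higher by 0.90 ± 0.14 at day 6. With time HM1 was lower by -1.33 ± 0.14, a rank of 61 from the bottom of 12280 genes, and CAG150 differed by 0.16 ± 0.14. The interaction was 1.49 ± 0.19, rank 24 from the top. The second probe set of Zic5 gave -0.49 ± 0.14 and 0.94 ± 0.14 between the lines at day 4 and day 6, with the same groups apart. The third, the dimmest, gave -0.28 ± 0.16 with overlapping groups at day 4 and 0.64 ± 0.16 with groups apart at day 6.

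Zic2, a regulator of forebrain division and of axon crossing at the optic chiasm, had 1 probe set with low intensity in every group. It read 47.0, 44.7 and 68.4 in HM1 and 39.5, 45.8 and 56.4 in CAG150 at day 4. At day 6 it read 22.5, 48.5 and 26.1 in HM1 and 28.1, 40.9 and 40.4 in CAG150. All 4 comparisons had overlapping groups, and the lines differed by -0.13 ± 0.19 at day 4 and 0.15 ± 0.19 at day 6. Means were lower at day 6 in both lines, by -0.54 ± 0.19 in HM1 and -0.27 ± 0.19 in CAG150, within the spread of the single arrays.

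Zic4, the partner of Zic1 on chromosome 9 and like it a factor of the developing cerebellum, was near the filter on the brighter of its probe sets and below it on the other. The brighter one read 22.4, 12.9 and 11.1 in HM1 and 10.7, 18.7 and 8.11 in CAG150 at day 4. At day 6 it read 11.8, 18.8 and 1.75 in HM1 and 14.5, 36.4 and 41.2 in CAG150, with 1 CAG150 array inside the range of HM1. The lines differed by -0.14 ± 0.27 at day 4 and 0.80 ± 0.27 at day 6, values that depend on the pseudocount, and no pair of groups compared was apart. The dimmer probe set, which did not pass the filter, was at 0.595 to 1.04 on all 6 HM1 arrays. On the CAG150 arrays it read 5.29, 10.4 and 7.04 at day 4 and 10.01, 11.4 and 14.3 at day 6. The lines did not overlap on it at either day, while they overlapped at both days on the brighter probe set. No fold is given for it, since the HM1 groups have no measured level above the filter.

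**Figure D2:**
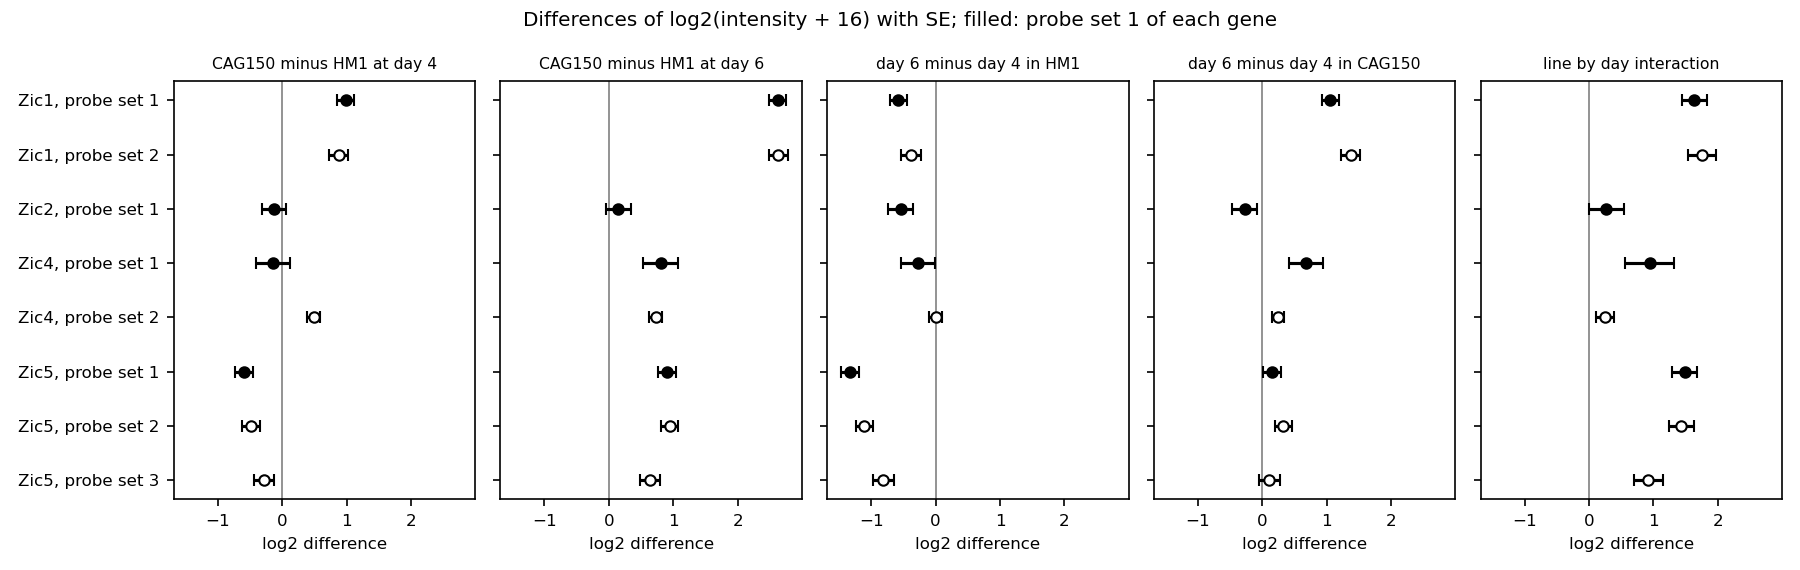
Difference of log2(intensity + 16) with its SE (horizontal axes) for each Zic probe set in the 5 comparisons; filled points are the brightest probe set of a gene. In the interaction the points run from 0.24 ± 0.14 for the second probe set of Zic4, which is below the filter, to 1.76 ± 0.22 for the second of Zic1. Zic2 is at 0.27 ± 0.27, so its direction is not settled.

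Set beside each other by their brightest probe sets, 1 of the 4 genes was apart and higher in CAG150 at day 4 (Zic1) and 1 was apart and lower (Zic5). Over all 12280 genes, 17.3% were apart and higher and 17.1% apart and lower in this comparison. At day 6, 2 of 4 were apart and higher (Zic1, Zic5) and 0 lower, against 18.8% and 19.8% of all genes. With time in HM1, 2 of 4 were apart and lower (Zic1, Zic5) and 0 higher, against 24.3% and 24.8% of all genes. With time in CAG150, 1 of 4 was apart and higher (Zic1) and 0 lower, against 27.4% and 27.6%. These comparisons had chosen the members, so the shares are only a background. The means of all 4 genes were lower at day 6 than at day 4 in HM1. In CAG150 the means of Zic1, Zic4 and Zic5 were higher at day 6 and that of Zic2 was lower. The day groups overlapped for Zic2 and Zic4 in both lines, and for Zic5 in CAG150 (0.16 ± 0.14). For Zic4 in HM1 the day difference was -0.27 ± 0.27 and went to -0.00008 with 1 array left out. Its direction is therefore not settled. On the dimmer Zic4 probe set, below the filter, the HM1 means were 0.758 at day 4 and 0.802 at day 6. The differences of all 4 genes kept their sign in every comparison under quantile normalization and median centring.

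For the genes around the Zic family, lists of genes were counted at an adjusted p under 0.05 by limma. The lists were chosen with earlier results of these data known, so the shares over all genes are only a background to their counts. Over all genes, 7.87% passed as higher and 7.92% as lower in CAG150 at day 4, and 10.1% and 11.2% at day 6. With each array centred on its median the split moved to 534 higher and 1165 lower at day 4, from 967 and 973, and to 811 and 1617 at day 6, from 1243 and 1381. From day 4 to day 6, 20.4% of genes passed as higher and 18.5% as lower in HM1, and 22.5% and 21.9% in CAG150. Median centring moved these splits from 2500 and 2273 to 1750 and 3085 in HM1, and from 2760 and 2693 to 1974 and 3474 in CAG150. It moved the median difference of all genes from -0.004 to -0.109 in HM1, and day differences below are given without that shift. In the interaction 1.58% passed as higher and 2.03% as lower, a split of 194 and 249 that median centring moved to 147 and 202.

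Dorsal genes, among which Zic1 is normally expressed, differed between the lines at both days. Of 15 roof plate signals and dorsal neural tube regulators 11 were tested, and at day 4 5 were higher and 3 lower in CAG150 (median log2 difference 0.04, against 0.01 over all genes). Wnt1, a signal of the dorsal midline and the midbrain-hindbrain boundary, rose from 47.2 ± 15.1 to 193 ± 47.2 (1.73 ± 0.23, n = 3 per group, adjusted p = 0.00029). Pax3, a dorsal and neural crest regulator, rose from 132 ± 35.6 to 409 ± 28.5 (1.55 ± 0.17, adjusted p = 5.9e-05), and Pax7, its relative, from 45.3 ± 19.04 to 139 ± 15.8 (1.39 ± 0.19, adjusted p = 0.00039). The other calls were of Msx1 and Msx3, higher, and of Bmp4, Bmp7 and Olig3, lower. Bmp4 and Bmp7 are roof plate signals of the BMP family. Gdf7 was not analysed here, and Wnt3a, Lmx1a and Atoh1 lay below the filter.

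At day 6, 5 of the 11 were higher and 1 lower (median 0.50, against -0.002 over all genes). Msx3, a regulator of the dorsal neural tube, rose from 22.1 ± 4.43 in HM1 to 230.0 ± 39.5 in CAG150 (2.68 ± 0.15, adjusted p = 1.4e-07). Pax3 rose from 382 ± 49.3 to 974 ± 142 (1.31 ± 0.17, adjusted p = 0.00016) and Lmx1b, a regulator of the roof plate, the isthmus and dorsal horn neurons, from 30.1 ± 8.75 to 73.5 ± 8.78 (0.97 ± 0.16, adjusted p = 0.00088). Msx1 and Msx2 were also higher, and Bmp4 was lower, a call that a pseudocount of 1 ended (adjusted p = 0.065). Lmx1a, below the filter over all arrays, at day 6 had means of 4.19 ± 2.12 for HM1 and 29.8 ± 8.36 for CAG150, with the groups apart.

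With time, 3 of the 11 dorsal genes rose and 5 fell in HM1, and 8 rose and 2 fell in CAG150. Pax7 rose in both lines, by 2.46 ± 0.19 in HM1 and 1.58 ± 0.19 in CAG150 (adjusted p = 9.6e-07 and 3.2e-05). Wnt1 fell in both, to 8.22 ± 4.82 in HM1 and 16.2 ± 7.84 in CAG150 (adjusted p = 0.00053 and 1.6e-06). Msx3 had the Zic1 pattern of a lower level at day 6 in HM1 (98.3 ± 14.4 to 22.1 ± 4.43, adjusted p = 5.5e-06) and a higher one in CAG150 (152 ± 29.1 to 230.0 ± 39.5, adjusted p = 0.01). Its interaction was 2.13 ± 0.21 (adjusted p = 2e-04), and 3 of the 11 genes passed there as higher and 1 as lower. Those were Msx3, Lmx1b and Bmp7, and Wnt1, and without any 1 of 4 arrays 2 and 0 passed, Msx3 and Lmx1b remaining.

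**Figure D3:**
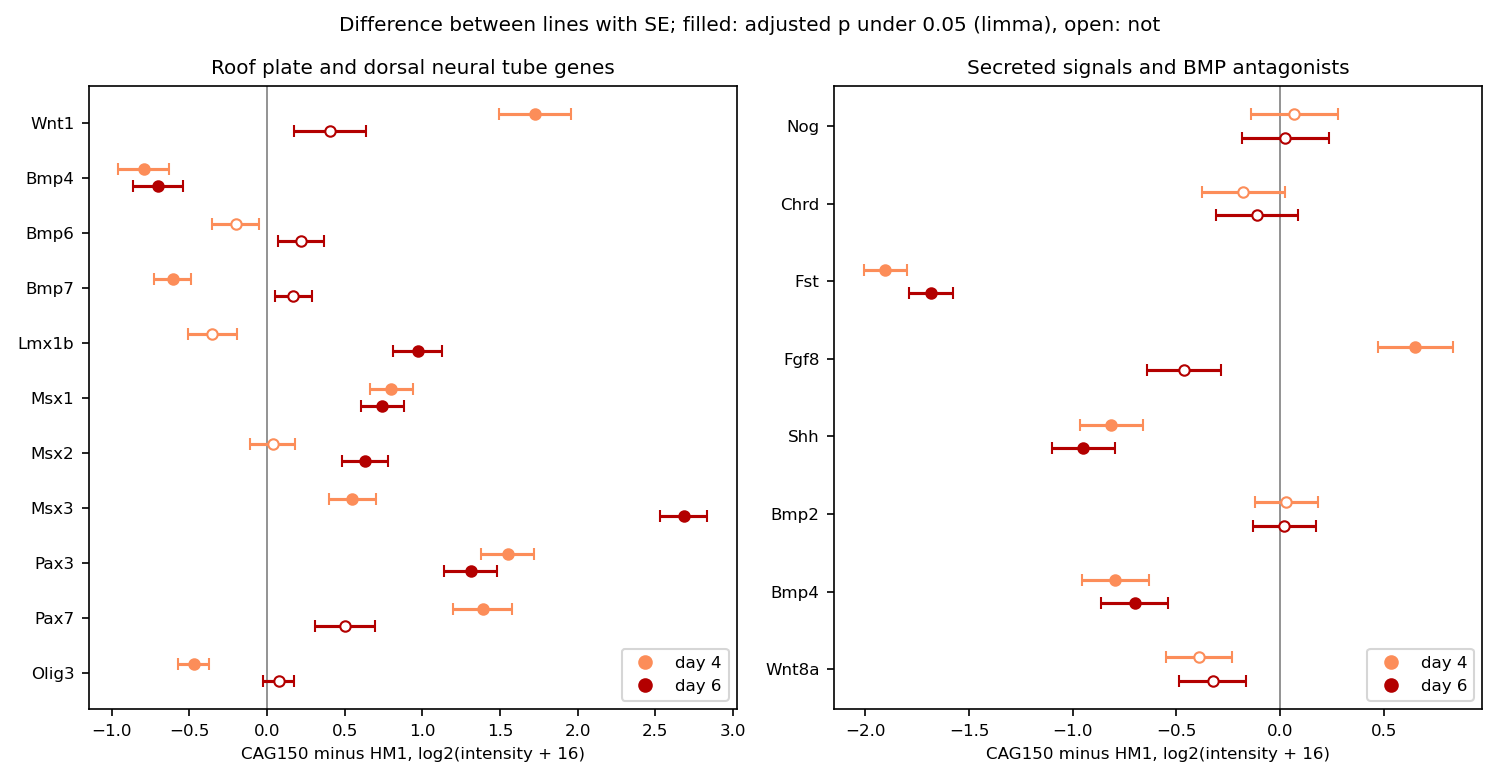
CAG150 minus HM1 difference of log2(intensity + 16) with its SE at day 4 and day 6 for the tested dorsal genes (left) and the tested secreted signals and BMP antagonists (right); filled points passed an adjusted p under 0.05. Pax3 and Msx3 lie to the right of 0 at both days, with Msx3 at 2.68 at day 6, and Fst lies to the left at both, at -1.90 and -1.68.

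Secreted signals and antagonists that set Zic domains in embryos were counted next, and their largest difference between the lines was in follistatin. Of 9 genes 8 were tested, with 1 higher and 3 lower in CAG150 at day 4 (median -0.28) and 0 higher and 3 lower at day 6 (median -0.39). Fst, the activin and BMP antagonist follistatin, fell from 601 ± 8.65 in HM1 to 149.9 ± 22.8 in CAG150 at day 4 (-1.90 ± 0.10, adjusted p = 1.9e-07) and from 229 ± 12.4 to 60.6 ± 6.69 at day 6 (-1.68 ± 0.10, adjusted p = 3.2e-07). Shh, the ventralising signal, fell from 36.5 ± 6.63 to 13.7 ± 2.26 at day 4 (adjusted p = 0.0032) and from 62.3 ± 8.78 to 25.0 ± 8.63 at day 6 (adjusted p = 0.00079). Bmp4 was the third that was lower at both days. Fgf8, a signal of the isthmus, rose at day 4 from 56.6 ± 12.1 to 97.4 ± 11.9 (0.65 ± 0.18, adjusted p = 0.027). That call was lost without any 1 of 3 arrays, with adjusted p up to 0.10, under both other normalizations (0.063 and 0.055) and with a pseudocount of 1 (0.38). The BMP antagonists Nog and Chrd did not pass in any of the 5 comparisons, and their group means lay between 13.4 and 27.9.

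Within each line the same signals changed in like directions, with 3 of 8 rising and 2 falling in HM1 and the same counts in CAG150. Fgf8 fell from 97.4 ± 11.9 to 3.98 ± 4.96 in CAG150 (adjusted p = 3e-07) and from 56.6 ± 12.1 to 11.3 ± 4.56 in HM1 (adjusted p = 5.5e-05). Fst fell, and Bmp2, Bmp4 and Shh rose, in both lines. In the interaction 0 passed as higher and 1 as lower, Fgf8 (-1.11 ± 0.25, adjusted p = 0.031), which was lost without any 1 of 7 arrays, with adjusted p up to 0.079, and under 4 other settings.

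Of 9 genes reported in other systems to be regulated by Zic proteins, 5 were tested, and they did not move one way. At day 4, 1 was higher and 2 lower in CAG150 (median -0.66), and at day 6 1 was higher and 3 lower (median -0.82). The higher gene was Pax3 at both days. Apoe, the apolipoprotein E gene, fell from 633 ± 34.2 in HM1 to 232 ± 16.5 in CAG150 at day 4 (-1.39 ± 0.09, adjusted p = 4.9e-07) and from 338 ± 8.93 to 62.9 ± 6.75 at day 6 (-2.17 ± 0.09, adjusted p = 1.3e-08). Ephb1, the guidance receptor of uncrossed retinal axons, at day 4 had means of 129 ± 21.5 for HM1 and 102 ± 4.08 for CAG150 (adjusted p = 0.13) and fell at day 6 from 202 ± 3.57 to 102 ± 14.4 (-0.89 ± 0.12, adjusted p = 0.00017). Nanog, a pluripotency factor, fell from 233 ± 25.4 to 123 ± 13.5 at day 4 (adjusted p = 0.00024) and from 159.9 ± 18.4 to 83.6 ± 5.32 at day 6 (adjusted p = 0.00022). With time 2 rose and 3 fell in HM1, and 1 rose and 2 fell in CAG150. In the interaction 0 passed as higher and 1 as lower, Apoe (-0.78 ± 0.12, adjusted p = 0.0042). Atoh1, Drd1, Myf5 and Foxd3 lay below the filter.

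The Gli and Glis genes are the nearest relatives of the family by their zinc fingers. In this list 6 relatives were tested. At day 4 0 passed (limma, with 1 at an unadjusted p under 0.05; median -0.11, against 0.01 over all genes), with Gli1, a Hedgehog target, at 23.3 ± 12.5 in HM1 and 9.90 ± 1.80 in CAG150 (adjusted p = 0.14). At day 6 1 was higher and 0 lower, Gli3, mostly a repressor in Hedgehog signalling, which rose from 767 ± 55.3 to 1164 ± 86.9 (0.59 ± 0.10, adjusted p = 0.0015). At day 6 3 of the 6 had an unadjusted p under 0.05, and 1 was higher and 1 lower under quantile normalization and without replicate 2 of HM1 at day 6. At day 4 1 was lower without replicate 3 of HM1 at day 4. These shares are close to those over all genes. Gli2 fell with time in both lines, from 475 ± 20.7 to 314 ± 31.1 in HM1 (adjusted p = 0.001) and from 492 ± 70.5 to 262 ± 15.03 in CAG150 (adjusted p = 3.7e-05). Of 12 reported Zic partners, all tested and including the 3 Gli genes, 1 was higher and 0 lower at each day. These were Mdfi, an inhibitor of myogenic factors, at day 4 (11.2 ± 2.26 to 27.9 ± 12.1, adjusted p = 0.018, lost without any 1 of 4 arrays with adjusted p up to 0.075) and Gli3 at day 6. The day 6 count of partners was 1 higher and 2 lower without replicate 2 of CAG150 at day 6 and under median centring, and 1 higher and 1 lower without replicate 2 of HM1 at day 6. The day 4 count ran from 0 to 2 with single arrays left out. With time 2 partners rose and 4 fell in HM1 and 1 rose and 5 fell in CAG150, among them Xrcc6, a Ku subunit of DNA repair, from 388 ± 8.82 to 271 ± 20.0 in HM1 (adjusted p = 0.00088). In the interaction 0 of the relatives and 0 of the partners passed by limma, with 1 and 2 at an unadjusted p under 0.05, and 1 partner was lower without replicate 1 of CAG150 at day 4.

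The chromosome neighbours of the Zic pairs were counted in the same way, and their differences were not tested against those of the Zic genes. Of the 3 protein-coding genes on each side of each pair, 7 of 12 were tested. At day 4 0 passed by limma, with 0 at an unadjusted p under 0.05, and at day 6 1 was higher, Pcca, a subunit of propionyl-CoA carboxylase beside Zic2 (200.4 ± 23.3 to 253 ± 13.8, adjusted p = 0.035), which was lost without any 1 of 4 arrays with adjusted p up to 0.14, with the mean of its probe sets (0.38), under median centring (0.072) and with no filter (0.063). Plscr2, below the filter, was apart and lower in CAG150 at both days, with day 4 means of 3.73 ± 2.99 for HM1 against 0.445 ± 0.216, and day 6 means of 15.9 ± 6.69 for HM1 against 0.481 ± 0.204. With time 0 rose and 4 fell in each line, which were Pcca, Clybl, Plscr1 and Ggact in both, the call of Ggact in HM1 (adjusted p = 0.035) being lost without any 1 of 3 arrays with adjusted p up to 0.12. Clybl, next to Zic5, fell from 109.8 ± 2.47 to 59.4 ± 6.19 in HM1 (adjusted p = 0.00015) and from 113 ± 20.0 to 71.4 ± 3.59 in CAG150 (adjusted p = 0.0011). In the interaction 0 neighbours passed by limma, with 0 at an unadjusted p under 0.05.

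The genes whose log2 values ran most like Zic1 over the 12 arrays were Rspo3, Cachd1, Wnt8b, Rspo2 and Ppp3r1, with Pearson correlations of 0.98, 0.97, 0.96, 0.96 and 0.96. The arrays fall into 4 groups, so these values mostly describe the group means and carry no test. Rspo3 and Rspo2 are secreted activators of Wnt signalling, Wnt8b is a Wnt ligand of the dorsal forebrain midline, and Ppp3r1 is the regulatory subunit of calcineurin. Rspo3 had mean intensities of 22.3 and 8.95 in HM1 at day 4 and day 6, and of 58.2 and 235 in CAG150. Wnt8b had 12.8 and 5.26 in HM1 and 35.0 and 54.4 in CAG150. The range was far smaller for Cachd1, from 914 in HM1 at day 6 to 1323 in CAG150 at day 6. The correlations of Zic1 with the other members were 0.56 for Zic4, 0.40 for Zic5 and 0.04 for Zic2, and that of Zic5 with Zic2 was 0.63.

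**Figure D4:**
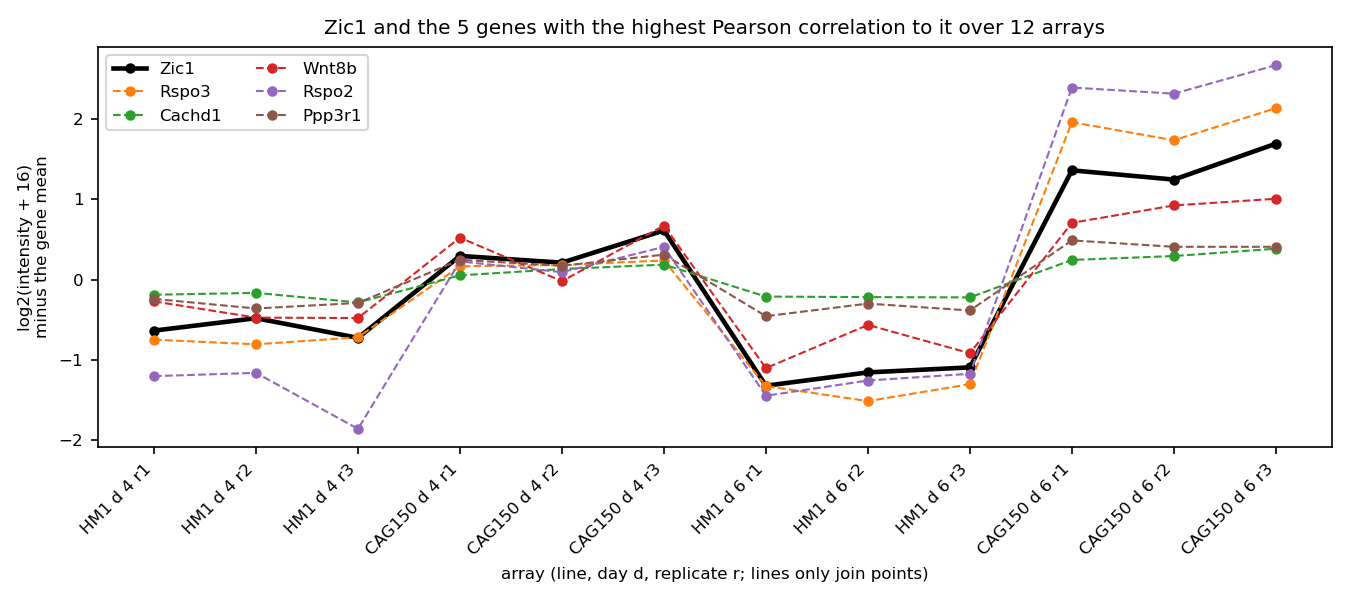
Log2(intensity + 16) minus the mean of each gene (vertical axis) on the 12 arrays for Zic1 and the 5 genes most correlated with it; the order of replicates has no meaning and lines only join the points of a gene. All 6 genes are highest on the CAG150 day 6 arrays as group means, with Rspo2 at a mean intensity of 808 and Zic1 at 1204.

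The summed levels of cell type markers also differed between the groups. Summed intensities of the 6 neural progenitor markers were 5805 to 6760.0 in HM1 and 7573 to 7810.1 in CAG150 at day 4, and 12445 to 13037 and 14189 to 14550.2 at day 6. Of the 6, Hes5 and Fabp7 passed as higher in CAG150 at day 4 (adjusted p = 1.7e-05 and 0.0011), while Sox1, Sox2 and Nes were apart and lower without passing (0.078, 0.065 and 0.078). At day 6 0 passed as higher and 1 as lower, Pax6 (-0.40 ± 0.09, adjusted p = 0.0068). The 8 neuron markers summed to 2953 to 3249 in HM1 and 1694 to 2002 in CAG150 at day 4, and to 6581 to 7683 and 9896 to 10693 at day 6. Single neuron markers went the other way from their sum at day 4, where 4 passed as higher and 1 as lower in CAG150. The lower one was Stmn2, with means of 2108 in HM1 and 607 in CAG150 (adjusted p = 1.2e-07 by limma). All the other neuron markers had higher means in CAG150 at day 4. The 7 pluripotency markers summed to 1488 to 1652 in HM1 and 494 to 555 in CAG150 at day 4, and to 2126 to 2430.5 and 911 to 969 at day 6. These markers did not move one way with time, as 2 passed as higher and 1 as lower in HM1, and 3 and 1 in CAG150. Dppa5a rose from 651 to 1352 in HM1 and from 175 to 511 in CAG150. Nanog fell in both lines (adjusted p = 0.0033 and 0.0036 by limma), and Pou5f1 passed in neither. The part of these differences in the Zic values was not tested.

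Zic genes are also expressed in cells other than neural progenitors, and 5 more lists covered these. The 8 neural crest markers summed to 315 to 426 in HM1 and 256 to 284 in CAG150 at day 4, and to 412 to 514 and 931 to 1105 at day 6. At day 6 3 of the 7 tested passed as higher in CAG150 and 2 as lower. Tfap2b, a neural crest and dorsal interneuron factor, had means of 99.7 in HM1 and 515 in CAG150 (adjusted p = 6.8e-07), and Tfap2a and Sox9 were the other higher genes. Ets1 went from 126 in HM1 to 30.2 in CAG150 (adjusted p = 8.4e-06) and Twist1 from 47.2 to 28.5 (adjusted p = 0.006). Sox10, which defines neural crest, had means of 16.4 and 20.0. The 7 granule cell precursor markers had 4 above the filter and summed to 538 to 585 in HM1 and 987 to 1067 in CAG150 at day 4, and to 1598 to 1662 and 1673 to 1818 at day 6. At day 4 3 of the 4 passed as higher in CAG150 by limma, En1, En2 and Meis1 (adjusted p = 0.00047, 1e-05 and 6.6e-06). At day 6 Meis1 passed as higher and Pax6 as lower. With time in CAG150, where Zic1 was higher at day 6, 2 of the 4 passed as higher and 2 as lower. En1 fell from 244 to 11.2 and En2 from 132 to 44.5, while Meis1 and Pax6 rose. In the interaction 0 of the 4 passed as higher and 3 as lower. Atoh1, the defining gene of granule cell precursors, was at 10.1 to 12.4 in the group means. Of 8 meningeal markers 4 were above the filter. The sum of all 8 was 162 to 169 in HM1 and 144 to 156 in CAG150 at day 4, and 243 to 317 and 88.7 to 93.0 at day 6. At day 6 0 of the 4 passed as higher and 2 as lower in CAG150 by limma. These were Foxc1, from 106 in HM1 to 6.22 (adjusted p = 1.8e-06), and Col3a1, from 72.5 to 17.0 (adjusted p = 0.00015). Col1a1 and Col1a2 did not pass (adjusted p = 0.18 and 0.12). Somite markers, 2 of 7 above the filter, summed to 52.5 to 82.5 on all arrays, and Myf5 and Meox1 had group means of 0.788 to 3.69. Endoderm markers, 4 of 8 above the filter, summed to 297 to 325 in HM1 and 147 to 199 in CAG150 at day 6. Of the 4 tested, 0 passed there as higher and 2 as lower by limma. These were Dab2, from 161 in HM1 to 63.0 in CAG150 (adjusted p = 7.4e-05), and Sox17, from 63.7 to 37.9 (adjusted p = 0.027). Gata4 and Gata6 did not pass (adjusted p = 0.88 and 0.3). Sox7, Afp, Ttr and Apoa1 lay below the filter, with overlapping groups at day 6. The part of these cells in the Zic values was not tested either.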

How the data were processed

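The authors deposited linear intensities for 45101 probe sets on 12 arrays, 64 of them controls, which were left out. From the values, the authors scaled each array to the same mean after trimming 2% at each end. Their software is not given in the sources used. Groups came from the sample titles, since the descriptions give day 4 for the HM1 samples of day 6. By the platform annotation 34945 probe sets have 1 symbol, 932 several and 9160 none, and only the first were named. The symbols were checked by Entrez identifier against RefSeq's table for GRCm38.p6, which changed 0.

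Values were transformed as log2(intensity + 16), the probe set with the highest mean was taken for each gene, and genes above the 40th percentile of probe sets were kept. All 12 arrays were fitted with limma 3.58.1 in R 4.3.3 with a mean for each group, with 8 residual and 4.46 prior degrees of freedom and eBayes moderation, and p-values were adjusted by Benjamini-Hochberg over the 12280 genes. The number of arrays limits the precision. The script was tested on simulated data. The members and lists were chosen with earlier results of these data known. From each list up to 4 genes with the largest difference among those that passed were named, list members without a tested probe set by name, markers as lists with single values, and the 5 genes with the highest correlation to a member. Lmx1a, Gli1, Nog, Chrd, Ephb1 at day 4, Plscr2, the single markers and the remaining calls of small lists were named after their values were seen. Same-numbered arrays did not deviate together (correlations from -0.13 to 0.12), so they were not treated as pairs. The alternatives were quantile normalization, median centring, pseudocounts of 1 and 64, no filter, the 60th percentile, averaging all probe sets of a gene, the replicate number as a block, and leaving out each array.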

Additional observations from a re-analysis of the deposited data

Results flagged for a closer look

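The difference between the lines was not the same at both days for 6 list genes, by the limma interaction test. Msx3 (2.13 ± 0.21, adjusted p = 2e-04), Lmx1b (1.32 ± 0.22, adjusted p = 0.0058) and Bmp7 (0.78 ± 0.17, adjusted p = 0.025) had the higher day 6 minus day 4 difference in CAG150. Apoe (-0.78 ± 0.12, adjusted p = 0.0042), Fgf8 (-1.11 ± 0.25, adjusted p = 0.031) and Wnt1 (-1.32 ± 0.33, adjusted p = 0.046) had the lower one. Apoe and Msx3 passed in every alternative run, with adjusted p of 0.0016 to 0.02 and 1.3e-05 to 0.001. Lmx1b was lost with the mean of its probe sets (adjusted p = 0.059), and Bmp7 with the mean of its probe sets (adjusted p = 0.76), with no filter (0.051) and without any 1 of 6 arrays. Fgf8 was lost without any 1 of 7 arrays and Wnt1 without any 1 of 8, both also under quantile normalization, a pseudocount of 1 and no filter, with adjusted p over all alternatives of 0.0091 to 0.14 and 0.00085 to 0.52.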

How the results depend on the processing

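Of 360 recomputed member differences, 0 changed sign by more than the residual spread of the gene. With each array left out 240 of 240 moved by less than this spread. The deviation of the array left out also enters the spread, so a single array could hardly move a difference beyond it. These 240 results therefore do not tell how far the differences depend on single arrays. Smaller sign changes did occur, in line differences of Zic2 and Zic4 given below. With a pseudocount of 1 the Zic4 differences moved to 1.71 between the lines at day 6, to -0.83 with time in HM1, to 1.18 with time in CAG150 and to 2.01 in the interaction. With a pseudocount of 64 the line difference at day 6 was 2.36 for Zic1, 0.34 for Zic4 and 0.70 for Zic5, the HM1 day difference of Zic5 was -1.07, and the interaction was 0.39 for Zic4 and 1.19 for Zic5. With the mean of all probe sets Zic5 had -1.08 with time in HM1 and 1.28 in the interaction. The Zic4 line difference at day 4 ranged from -0.30 to 0.17 over the alternatives other than leaving out arrays, and that of Zic2 from -0.23 to 0.02 (at day 6 from -0.00055 to 0.37) with arrays left out, so neither has a settled direction. The interaction called 443 genes, against 295 with no filter and 270 to 362 with an array left out, the lowest without replicate 3 of CAG150 at day 6, and 295 without replicate 2 of CAG150 at day 4. With the replicate number as a block, 1867 genes passed at day 4 and 2547 at day 6 between the lines, 4710 and 5425 with time in HM1 and CAG150, and 396 in the interaction. The block ended the calls of Fgf8 in the interaction and of Mbd3 with time in HM1 (adjusted p = 0.058 for both). Of 1318 recomputed calls of named list genes 77 were lost and 0 changed sign. The cause was not tested. Zic4 lies close to the filter, and Zic2 is dim, with group means of 32.4 to 53.4 against a filter at 11.9. For both genes only intensities, not detection calls, were used.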

Other observations

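Genes outside the report's lists ran like the other members over the 12 arrays. For Zic5 the highest Pearson correlation was with Fezf1, a forebrain zinc finger factor (0.94), with mean intensities of 56.4 and 14.4 in HM1 and 38.8 and 48.6 in CAG150 at day 4 and day 6. Next came Ciapin1 (0.91), Pcdh19, a protocadherin of neural progenitors (0.90), Rhbdf2 (0.89) and the atypical cadherin Fat1 (0.88). Pcdh19 had means of 226 and 116 in HM1 and 160.0 and 157 in CAG150. For Zic2 the 5 nearest genes, led by Rpp25l, had correlations of 0.87 to 0.91, and for Zic4, led by Slc9a7, of 0.79 to 0.88. Both members are dim, and their nearest genes are given only as values.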
